A study of Mus musculus with 3 samples.

Results

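The genes examined here make, remove and read retinoic acid, and they were followed in a list of chromatin sites bound by Foxf2 in the embryonic mouse tongue. The set held 10 genes: Aldh1a1, Aldh1a2 and Aldh1a3 (synthesis), Cyp26a1, Cyp26b1 and Dhrs3 (breakdown or reduction) and Rara, Rarb, Rarg and Rxra (receptors). A peak was given to a gene when the nearest transcription start of any protein-coding gene to the peak's midpoint belonged to it, with the starts taken from the GENCODE basic transcripts of mm10. By that rule 57 of the 25704 peaks on assembled chromosomes were nearest to 1 of the 10 genes, and 9 of the 10 genes had at least 1 peak. Among all 21938 protein-coding genes, 37.3% had one, a share that takes no account of how much sequence lies nearest to each gene's starts. Most of the set have long stretches of such sequence. Among genes with a stretch of like length, 80.5% had a peak for Rarb, 80.4% for Cyp26b1 and 75.8% for Aldh1a1. The share was 72.8% for both Dhrs3 and Rxra, 71.0% for Cyp26a1, 68.1% for Aldh1a2 and 67.6% for Aldh1a3. For Rara and Rarg it was 33.1% and 17.5%.

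The tissue was tongue dissected at E12.5 from mice homozygous for Foxf2FLAG, in which genome editing had put a 3xFLAG tag on the endogenous Foxf2 protein. All 3 samples, 2 anti-FLAG ChIP libraries and 1 input library without antibody, came from this genotype and stage, and the labels mention 75 tongues on each. Untagged tissue was not analysed here. The peaks form 1 list with no value per library, so spread between libraries could not be measured, no test was run, and the sequencing depth is unknown. Foxf2 binding was measured and not expression, so the list cannot show whether any of these genes is active in the tongue.

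Retinoic acid is made from vitamin A. Retinol is oxidised to retinaldehyde and then, by the Aldh1a enzymes, to retinoic acid, while Dhrs3 turns retinaldehyde back into retinol and the Cyp26 enzymes hydroxylate retinoic acid for removal. Retinoic acid binds receptors of the Rar family, which pair with Rxr receptors on directly repeated hexamers in DNA called retinoic acid response elements. Several genes of the pathway, among them Rarb, Cyp26a1 and Dhrs3, are themselves known to be induced by retinoic acid. Tight control of retinoic acid is known to matter for the shaping of the tongue and palate, and Foxf2 is a forkhead factor of the mesenchyme in both.

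The 3 highest-scored peaks of the set belonged to a gene of each role: Cyp26b1 (score 113.2), Aldh1a2 (109.4) and Rarb (105.2). The score is the authors' value from their peak caller and is used here only to rank and describe peaks within the list, where it ran from 10.1 to 243.9 with a median of 16.2. These 3 ranked 91, 109 and 130 of 25704. Their sequences are shown whole because they are the strongest sites in the set, with matches to the forkhead core in capitals. The core was taken, on either strand, as the strict form GTAAACA, as GTAAATA, which differs in 1 base, or as either of their counterparts that begin with A, namely ATAAACA and then ATAAATA. The peaks lie at chr6:84414545-84414757, chr9:71242277-71242489 and chr14:16965192-16965404 in mm10, each is printed from the plus strand, and a core on the minus strand therefore appears as its reverse complement.
Cyp26b1 peak: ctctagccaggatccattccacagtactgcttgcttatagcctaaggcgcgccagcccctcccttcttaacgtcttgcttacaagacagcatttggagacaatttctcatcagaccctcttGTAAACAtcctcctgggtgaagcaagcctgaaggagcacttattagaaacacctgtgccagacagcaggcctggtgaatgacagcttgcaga
Aldh1a2 peak: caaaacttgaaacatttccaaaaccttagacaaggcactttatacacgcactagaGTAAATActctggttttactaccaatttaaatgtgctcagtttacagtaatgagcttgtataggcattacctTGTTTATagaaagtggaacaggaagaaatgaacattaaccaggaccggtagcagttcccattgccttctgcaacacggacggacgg
Rarb peak: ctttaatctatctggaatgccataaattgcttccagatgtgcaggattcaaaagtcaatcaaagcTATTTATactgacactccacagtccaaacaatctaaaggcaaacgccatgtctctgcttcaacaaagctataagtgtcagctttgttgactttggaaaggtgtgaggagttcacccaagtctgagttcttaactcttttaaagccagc
The Cyp26b1 peak held 1 core of the strict form GTAAACA, 18 bp from the midpoint. The Aldh1a2 peak held 2 cores, the nearer 24 bp from its midpoint. The single core in the Rarb peak was ATAAATA, the form least often nearest to the midpoint in these peaks, and lay 38 bp from the midpoint.

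Shorter stretches of 29 bases show the core in the highest-scored core-bearing peak of the other 6 genes, and in the promoter or near-promoter peaks of Cyp26b1 and Rarb, so that the sites can be compared. Each is written on the strand that carries the core, which is in capitals.
Aldh1a3 (chr7:66501678-66501706, minus): aaaaaaagaaaATAAACAaatccacggtt
Cyp26a1 (chr19:37768491-37768519, minus): accccaaaaatGTAAACAtagagagggtg
Dhrs3 (chr4:144895357-144895385, plus): cttgaccgactGTAAACAatcctaaattg
Rara (chr11:98926213-98926241, plus): cgagccctttgGTAAACActcattaactg
Rarg (chr15:102244795-102244823, plus): aaacttaacttGTAAACAgcgctgctgag
Rxra (chr2:27767942-27767970, plus): tgattgaataaATAAACAaagagaaggaa
Cyp26b1 promoter (chr6:84588985-84589013, minus): cccgcctctatATAAACAcacgcatcgcc
Rarb promoter (chr14:16576601-16576629, plus): atccatagaacGTAAATAactacctgtca
The strict form GTAAACA stood in the sites of Cyp26a1, Dhrs3, Rara and Rarg. The sites of Aldh1a3, Rxra and the Cyp26b1 promoter held ATAAACA, and that of the Rarb promoter held GTAAATA.

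**Figure D1:**
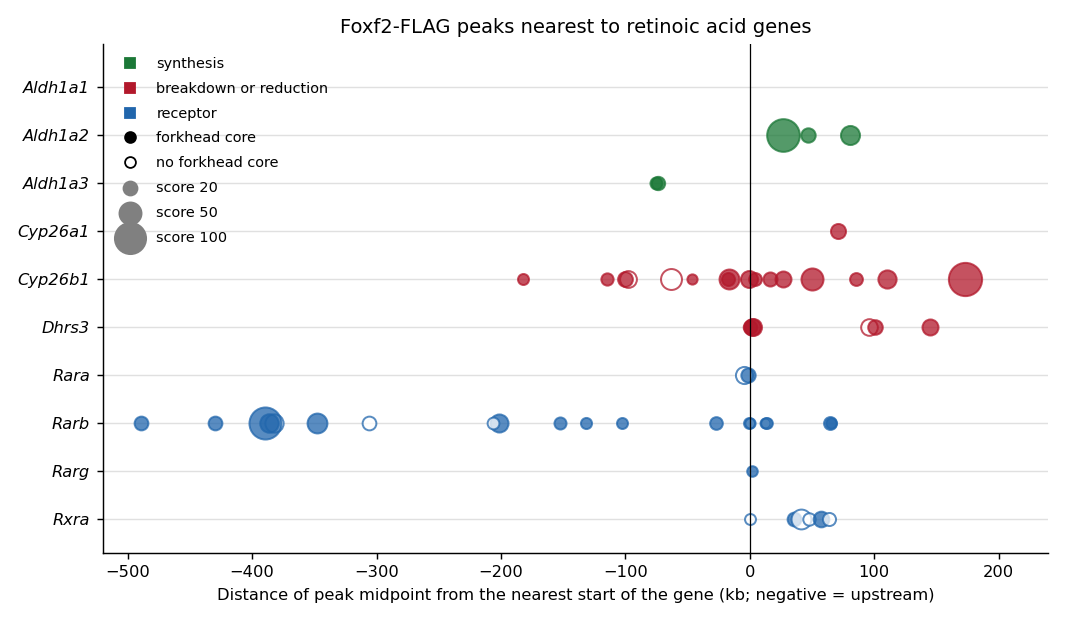
Position of each of the 57 peaks relative to the nearest GENCODE basic start of its gene (horizontal axis, kb, negative upstream), 1 row per gene. The area of a circle is proportional to the peak's score, filled circles hold a forkhead core in the central 200 bp and open circles do not. Rarb and Cyp26b1 carry 36 of the peaks, and Aldh1a1 carries none.

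Among the synthesis enzymes, Aldh1a2 had the strongest peak and Aldh1a1 had none. Together the 3 genes had 5 peaks, all with a forkhead core, which 72.5% of all peaks held in their central 200 bp. Aldh1a2, the main retinoic acid-producing enzyme of the early embryo, lies on chromosome 9 from 71215789 to 71296243, and its 3 peaks had scores of 109.4, 21.2 and 37.2 in order along the gene. The first lay in an intron 26.6 kb downstream of the start, the second in an intron at 47.1 kb, and the third at 80.7 kb, just past the end of the gene. All 3 had focus ratios from 0.860 to 0.874, against a median of 0.783 over all peaks. The focus ratio is a fraction given for each peak by the authors' peak caller, and is used here only to describe peaks within the list.

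Aldh1a3, another enzyme of the last step, had 2 peaks with scores of 18.2 and 14.9. They lay 1.15 kb apart, 74.2 and 75.3 kb upstream of its start, and each held 2 forkhead cores. A further peak (score 17.6, chr7:66397860-66398072) lay within the body of Aldh1a3 but closer to the start of its neighbour Lrrk1, and was counted there. Aldh1a1 was the only gene of the set without a peak. Its territory, the sequence nearer to its starts than to those of any other protein-coding gene, is 223 kb, and 75.8% of the 1341 protein-coding genes with a territory of like length (within a factor of 1.25) had a peak. The peak closest to an Aldh1a1 start was 76.2 kb away (score 19.8) and nearest to Aldh1a7, a related gene next to it.

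Among the genes that remove retinoic acid or its precursor, Cyp26b1 had 16 peaks, Dhrs3 had 6 and Cyp26a1 had 1. Cyp26b1 and Rarb each had at least 16, a number reached by 0.775% of protein-coding genes under the same rule. The cut-off is the count of Cyp26b1 itself, and the share takes no account of territory, so it is a description. Among genes with a territory of like length, the upper quartile was 8 peaks for Cyp26b1 and 10 for Rarb. The counts depend on the rule of assignment: when starts of all biotypes competed Cyp26b1 had 9 and Rarb 10, and in gene bodies with 5 kb upstream they had 2 and 13. Cyp26b1, which degrades retinoic acid, lies on chromosome 6 from 84571414 to 84593908 on the minus strand. The scores of its peaks ran from 10.7 to 113.2 with a median of 24.4, and 13 of the 16 were at or above the median of the whole list. They spread over both sides of the gene, 9 upstream and 7 downstream of the nearest start, from 182 kb upstream to 173 kb downstream.

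The highest-scored Cyp26b1 peak (113.2) was also the farthest downstream, in an intron of the long noncoding RNA gene Gm10445. It lay 9187 bp from a start of Gm10445, to which it was given when starts of all biotypes competed. At higher coordinates, toward Cyp26b1, came peaks of 34.0, 16.9, 49.8, 26.2 and 20.3 in sequence between genes. All 7 peaks downstream of a start held a forkhead core, and 7 of the 9 upstream did, beside 72.5% of all peaks. A peak of 17.1 lay in an intron of Cyp26b1, and one of 29.7 lay 355 bp upstream of an internal start, so that it counted as a promoter peak (1000 bp upstream to 100 bp downstream of a start). Upstream, a pair of peaks 17.1 and 17.7 kb from the gene (scores 40.7 and 17.4) was 0.64 kb apart. The 6 remaining upstream peaks (scores 10.7 to 44.8) lay inside introns of Exoc6b, the neighbouring gene, which encodes a subunit of the exocyst. They were given to Cyp26b1 by distance to a start alone. With the starts of all GENCODE transcripts the one farthest upstream (score 12.4) was nearer to Exoc6b.

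Dhrs3, the enzyme that returns retinaldehyde to retinol, lies on chromosome 4 from 144892827 to 144928209. Of its 6 peaks, 3 lay at the start of the gene, 27 bp upstream (score 18.7) and 1.72 and 2.27 kb downstream (27.7 and 29.7) of the start of 1 transcript. Each of these 3 held a forkhead core, as 72.5% of all peaks did. In the peak at the promoter it was GTAAACA, 84 bp from the midpoint. The other 3, with scores of 28.3, 21.8 and 26.3, lay 95.6 to 145 kb downstream in introns of Vps13d. Every Dhrs3 peak was above the list median, in the narrow range from 18.7 to 29.7, and none reached the 90th percentile of scores (38.6). With the starts of all GENCODE transcripts, an alternative chosen after seeing the data, the 3 distal peaks were nearer to a start of Vps13d, at 4.68 to 12.9 kb, and Dhrs3 had 3 peaks instead of 6.

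Cyp26a1, the other degrading enzyme of the set, had 1 peak, with a score of 23.2, 70.7 kb downstream of its start. It held the strict core GTAAACA 13 bp from the midpoint. Its density, 0.559 peaks per 100 kb of territory, was below the mean of 1.03 per 100 kb over all autosomes. The adjoining gene Cyp26c1, which belongs to the same enzyme family, had no peak.

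**Figure D2:**
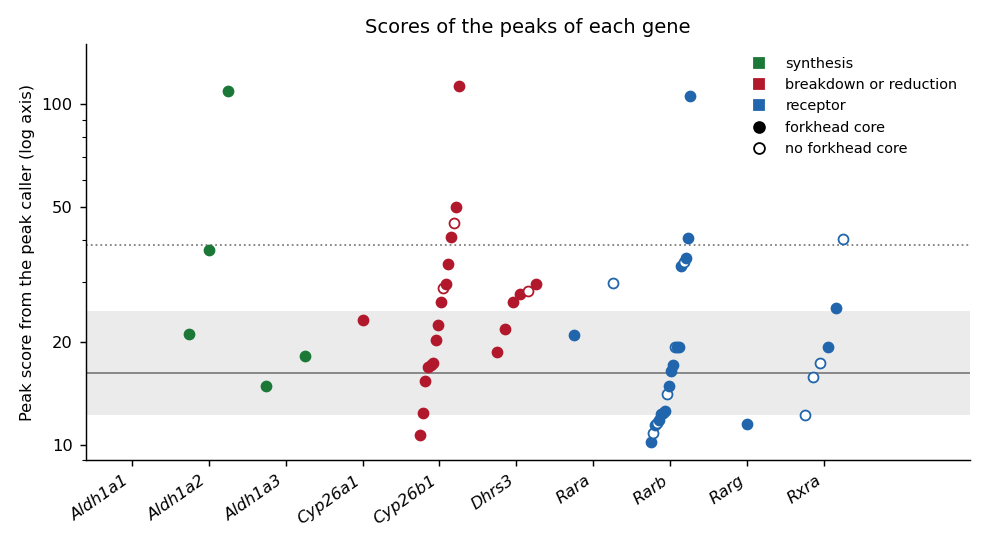
Scores of the peaks of each gene (vertical log axis, authors' peak caller), sorted within a gene, with filled points for peaks with a forkhead core. The grey band spans the lower to the upper quartile of all 25704 peaks (12.3 to 24.5), the solid line is their median (16.2) and the dotted line their 90th percentile (38.6). Points above 100 belong to Cyp26b1, Aldh1a2 and Rarb.

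Among the receptors, Rarb had 20 peaks, the most of the set by the main rule, Rxra had 6, Rara 2 and Rarg 1. Cyp26b1 had more than Rarb among peaks at or above the list median score (13 against 10), in the top 25% of scores (8 against 5) and within 100 kb of a start (11 against 8). Within 10 kb Dhrs3 had 3, and Rarb, Rara and Cyp26b1 had 2 each. Rarb encodes a receptor whose own gene responds to retinoic acid. The scores of its peaks ran from 10.2 to 105.2 with a median of 15.7. The high scores lay far from the GENCODE basic starts: 7 peaks were 306 to 490 kb upstream of them, and they had scores of 19.3, 40.4, 34.3, 35.2, 105.2, 19.4 and 19.4 in order away from the gene. All 7 were above the list median, with a median of 34.3. Of the other 13, from 206 kb upstream to 65.4 kb downstream, 3 were at or above the list median, and their median was 12.4 (range 10.2 to 33.4). The boundary of 300 kb was chosen after the values were seen, so this is a description.

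The description of these distant Rarb peaks depends on the annotation. GENCODE basic transcripts of Rarb start at 16575543 and 16575827, on the minus strand of chromosome 14. The comprehensive GENCODE annotation adds a start 243 kb farther upstream (16819156), and curated RefSeq transcripts of the same build begin 506.5 kb upstream (17082331). In RefSeq the gene spans 651.5 kb, and all 20 peaks lie within it; no other peak of the list does. Relative to the outermost RefSeq start, the strongest peak lies 117 kb inside the gene and the most distant one 17 kb inside, not between genes. All 20 remained nearest to Rarb under each of the 3 sets of starts. When starts of all biotypes competed, Rarb kept 10. The distant peaks were then nearest to Tpi-rs9, Gm18078 or Gm18927, and the peak of 105.2 lay 11692 bp from a start of Gm18078.

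**Figure D3:**
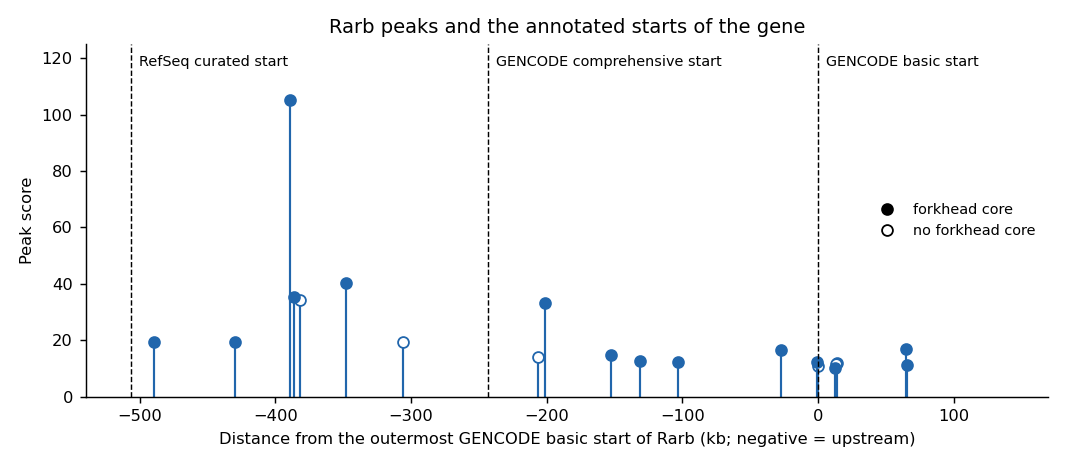
Score of each of the 20 Rarb peaks (vertical axis) against its distance from the outermost GENCODE basic start (horizontal axis, kb, negative upstream), with dashed lines at the outermost start in each annotation. The cluster with the score of 105.2 stands between the GENCODE comprehensive and the RefSeq start.

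Close to the Rarb promoter the peaks were weak. A peak with a score of 10.8 (chr14:16575577-16575789) lay 140 bp upstream of a start and held no forkhead core, and one of 12.3 lay 797 bp upstream of the other start and held 2. These are GENCODE basic starts. From the nearest RefSeq start the peak of 12.3 was 1.15 kb upstream, outside the promoter limit of 1000 bp. Inside the gene, 3 low peaks (11.8, 11.6 and 10.2) lay 0.75 and 0.50 kb apart, 12.2 to 13.5 kb downstream of the start, and a pair (11.4 and 17.1) lay 64.8 and 65.4 kb downstream, 0.64 kb apart.

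Rxra encodes the partner with which the Rar receptors bind DNA. It lies on chromosome 2 from 27676440 to 27762957. Its 6 peaks had scores of 12.2, 19.4, 40.2, 15.8, 25.2 and 17.4 in order along the gene, the first 4 bp downstream of a start and the others 35.6 to 63.9 kb downstream of an internal start. The last of these (25.2 and 17.4) lay past the end of the gene. Only 2 of the 6 held a forkhead core, the fewest of any gene with more than 2 peaks, beside 72.5% of all peaks. The peak of 40.2 had the highest focus ratio of the set, 0.937, and no forkhead core, while the promoter peak had a GC content of 83% and none either.

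Rara and Rarg, the remaining receptors for retinoic acid, had few peaks in short territories. Rara, on chromosome 11 from 98927818 to 98974942, had peaks of 29.9 and 21.0, at 4.82 and 1.60 kb upstream of its outermost GENCODE start. In curated RefSeq transcripts the outermost start lies 9.88 kb farther downstream, and the peak of 29.9 was 14.7 kb from the nearest RefSeq start. The higher-scored one lay in an untranslated exon of Cdc6, a replication gene, and held no core. The other lay between the genes and held GTAAACA 7 bp from its midpoint. With the starts of all GENCODE transcripts the first was nearer to Cdc6, which left Rara with 1 peak. Rarg, on chromosome 15 from 102234938 to 102257517, had 1 peak of 11.5 in an intron 1.68 kb downstream of an internal start, with GTAAACA 6 bp from the midpoint.

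The number of peaks was then set against the length of sequence in which a peak would be given to each gene. The 10 territories sum to 2370 kb, and the 57 peaks make 2.4 per 100 kb, against 1.03 over all autosomes. The density was above that mean in 8 of the 10 genes, and in 28.2% of all 21921 protein-coding genes with a territory. That share includes genes without a peak and takes no account of territory length, so it is not a matched comparison. Genes with a territory of like length to that of Rxra or Dhrs3 (202 kb) had a median of 2 peaks. In a short territory 1 peak is enough to pass it, as at Rarg. It was 4.03 per 100 kb at Rarg, 3.72 at Rara, 3.09 at Rarb, 3.03 at Cyp26b1 and 2.97 at both Rxra and Dhrs3, followed by 1.90 at Aldh1a2 and 1.32 at Aldh1a3. Rara rests on 2 peaks. By role, the receptors had 3.12 peaks per 100 kb, the breakdown and reduction genes 2.53 and the synthesis genes 0.939. Genes with a territory of like length to that of Rarb (648 kb) had a median of 4 peaks, with quartiles of 1 and 10, and for Cyp26b1 (528 kb) the median was 4, with quartiles of 1 and 8. Both genes lay above the upper quartile of their peers. So did Rxra and Dhrs3 (6 peaks against 4 for each), Rara (2 against 1) and Rarg (1 against 0). Aldh1a2 equalled its upper quartile of 3. Aldh1a3 (2 against 3), Cyp26a1 (1 against 3) and Aldh1a1 (0 against 5) lay below theirs. The members are 10 genes chosen by function, and no test was made of whether they differ from other genes.

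**Figure D4:**
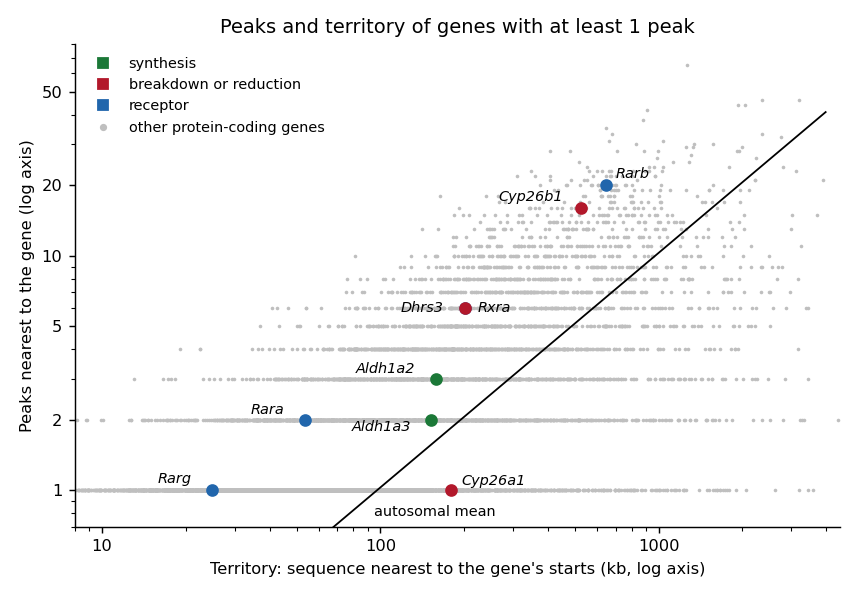
Peaks nearest to a gene against the length of its territory, both on log axes, for protein-coding genes with at least 1 peak and a territory over 8 kb (grey) and the 9 retinoic acid genes with a peak (coloured by role). The line marks the autosomal mean of 1.03 peaks per 100 kb. Dhrs3 and Rxra fall on the same point (6 peaks in 202 kb, drawn in the colour of Dhrs3), and Cyp26a1 is the only coloured gene below the line.

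The 57 peaks had a median score of 19.4, against 16.2 in the list from which they came. Of the 57, 40 (70.2%, exact binomial 95% interval 56.6 to 81.6) were at or above the list median, a mark that 50.1% of all peaks reach because of ties. The interval covers the counting of peaks only, and peaks of the same gene are not independent of each other. The top 10.1% of peaks by score, those at or above the 90th percentile, held 8 of the 57 (14%), and these belonged to Cyp26b1 (4), Rarb (2), Aldh1a2 (1) and Rxra (1). A peak of that class was nearest to 8.12% of protein-coding genes. The median focus ratio was 0.772 against 0.783, and median GC content was 43% against 43.5%.

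The median distance to a start was 63.9 kb, against 51.3 kb for all peaks. Within 10 kb lay 11 of the 57 peaks (19.3%), near the 20.9% of all peaks. By GENCODE basic starts these 11 belonged to 6 genes (Dhrs3, Cyp26b1, Rarb, Rara, Rarg and Rxra), whereas 19.4% of all protein-coding genes had a peak within that distance. Promoters held 5 of the 57 peaks (8.77%, exact interval 2.91 to 19.3), close to the 8.52% of all peaks. The 5 promoter peaks, by GENCODE basic starts, belonged to Cyp26b1, Dhrs3, Rxra and, with 2, Rarb. Among all protein-coding genes 6.68% had a peak in a promoter of their own. By GENCODE basic transcripts 24 further peaks lay in introns (42.1%, against 46.1% of all peaks), 27 between genes (47.4%, against 41.8%) and 1 in an untranslated exon (1.75% in both). The exact intervals of the 57 contained the share of all peaks for each class. By the spans of the comprehensive GENCODE annotation, 25 of the 57 lay in the gene to which they were assigned. That count was 18 with basic and 32 with RefSeq transcripts, since Rarb is shorter in the former and longer in the latter. By the comprehensive spans 10 lay in another protein-coding gene (6 in Exoc6b, 3 in Vps13d and 1 in Cdc6), and 22 lay in no protein-coding gene.

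Peaks of the same gene lay close together in a number of cases. Of 48 gaps between neighbouring peaks of the same gene, 19 (39.6%) were under 10 kb, and 7 were under 1.5 kb. Over all neighbouring peaks in the list, whatever their gene, 21.0% of gaps were under 10 kb. The measures differ in that the former leaves out gaps between genes.

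The forkhead core was present in the central 200 bp of 44 of the 57 peaks (77.2%, exact binomial 95% interval 64.2 to 87.3), against 72.5% of all peaks. Windows of the same width 2000 bp from the midpoints of the 57 held it in 7 cases on the lower-coordinate side and 4 on the other (a mean of 9.65%), against a mean of 18.3% in the flanks of all peaks. The strict form GTAAACA was present in 17 peaks (29.8%, interval 18.4 to 43.4), against 27.4%. Both intervals contain the value of the whole list. The core nearest to the midpoint was ATAAACA in 22 peaks, GTAAACA in 15, GTAAATA in 5 and ATAAATA in 2, and it lay within 20 bp of the midpoint in 29 of the 44 (65.9%), against 72.1% of all peaks with a core.

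Peaks with a core had a median score of 19.9, and the 13 without one 19.3, against 17.1 and 14.4 over the whole list. The 13 lay at Rarb (5), Rxra (4), Cyp26b1 (2), Rara (1) and Dhrs3 (1). Of the 9 genes with peaks, 7 had a core in their highest-scored peak, the exceptions being Rara and Rxra. All 5 peaks of the synthesis genes held a core, as did 20 of 23 at the breakdown and reduction genes and 19 of 29 at the receptors. These counts stand beside the 72.5% of all peaks that held a core.

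The hexamers on which retinoic acid receptors bind were counted in the same windows, to describe whether Foxf2 sites at these genes also carry sequence of the receptors' type. The hexamer was taken, on either strand, as the consensus AGGTCA, as AGTTCA in which the middle differs, or as either of their counterparts that begin with G, namely GGGTCA and also GGTTCA. It was present in 19 of 57 peaks (33.3%, exact interval 21.4 to 47.1), against 26.4% of all peaks. The flanks held it more often on average, in a mean of 39.5% around the 57 and of 36.1% around all peaks. Around the 57 it was in 26 windows on the lower-coordinate side and in 19 on the other, as many as at the centre. The consensus form AGGTCA was present in 2 (3.51%, interval 0.428 to 12.1), against 7.04%. The 2 were the Rara peak 1.60 kb upstream of the start and a Rarb peak 27.4 kb upstream. No peak of the set held 2 hexamers in direct repeat spaced by 1, 2 or 5 bases, the arrangements known for retinoic acid response elements, in its central 200 bp. Over the whole list these arrangements were present in 18, 8 and 10 of 25704 peaks, so that a set of 57 is too small to show a difference.

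A repeat spaced by 5 bases lay just outside 1 peak, and it is shown because it stands at the Rarb promoter, with its hexamers in capitals. A second was found in the promoter of Cyp26a1.
Rarb (chr14:16575513-16575529, minus): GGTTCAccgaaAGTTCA
Cyp26a1 (chr19:37697776-37697792, minus): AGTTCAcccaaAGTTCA
The Rarb repeat lay 14 to 30 bp downstream of the basic start of a transcript and 48 bp from the edge of the promoter peak with the score of 10.8. In the RefSeq promoter in which it was found (chr14:16575427-16575726, minus strand), it lay upstream of the start. Within 200 bp of the midpoint on either side, 38 of all 25704 peaks (0.148%) had such a repeat. The Cyp26a1 repeat lay 6 to 22 bp upstream of the start, and the only Cyp26a1 peak was 70.6 kb away. The promoters searched were the 17 that RefSeq (GRCm38.p6, the assembly of mm10) lists for these genes, each from 250 bases before to 50 after a start. The symbols of 9 of the 10 genes matched, and Aldh1a3 did not. Of all 32851 RefSeq promoters, 32 (0.0974%) held a repeat spaced by 5, beside 2 of the 17. The members were chosen by function, and both genes are known to be induced by retinoic acid. The 2 are therefore a description, and an excess was not tested. A forkhead core was in 3 of the 17 and in 15% of all.

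Short sequences of 3 other factor families were counted too, and the exact intervals of the 57 peaks contained the share of the whole list for each. The E-box CATCTG, bound by basic helix-loop-helix factors, was in 16 (28.1%, against 28.0%), and the E-box CAGCTG in 10 (17.5%, against 18.7%). The sequence TGACAG of TALE homeodomain factors was in 10 (17.5%, against 17.9%) and the TEAD sequence CATTCC in 6 (10.5%, against 15.1%). Each was matched on both strands in the central 200 bp.

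**Figure D5:**
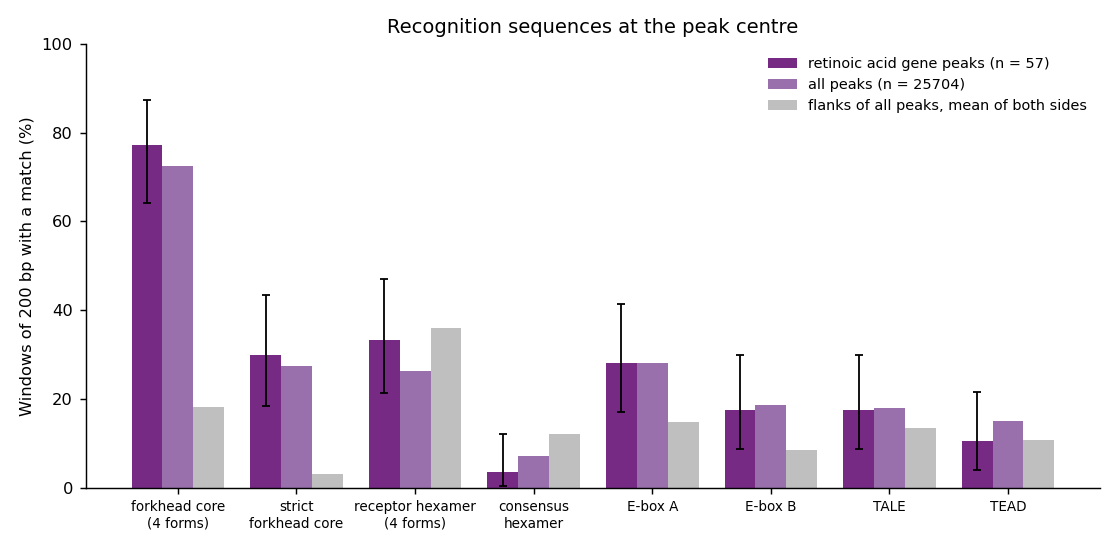
Share of 200 bp windows with a match (vertical axis, percent) in the 57 peaks of retinoic acid genes, in all 25704 peaks and in the flanks of all peaks. E-box A is CATCTG and E-box B is CAGCTG, and error bars are exact binomial 95% intervals of the 57. Every interval contains the share of all peaks.

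Other genes of retinoid biology, 53 in a list drawn up by role, were looked up in the same way. Of these, 30 (56.6%) had at least 1 peak, beside the 37.3% of all protein-coding genes, and territories were not matched. Genes for uptake and binding of retinoids had peaks at 6 of 9, with 2 each at Crabp1 and Fabp5, which encode intracellular binding proteins. Enzymes acting on retinol, retinaldehyde and carotenoids had them at 4 of 15. There Rdh10, which oxidises retinol to retinaldehyde, had 6 peaks, the highest scoring 85.2, and Dhrs9, Adh1 and Bco1 had 1 each. Of the remaining breakdown and receptor genes, 3 of 4 had peaks, with 2 at Rxrg and 1 each at Rxrb and Ppard. Corepressors and coactivators had them at 8 of 11, with 6 at Zfp423, a zinc finger cofactor of the receptors. Genes known to respond to retinoic acid had them at 9 of 14, led by Nr2f2 with 27 and Meis1 with 26, both transcription factors with territories of 1300 and 985 kb.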

How the data were processed

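Anti-FLAG ChIP-seq peaks of E12.5 mouse tongue were used, from 2 ChIP libraries and 1 input. Per the submitters' processing notes, Bowtie2 (2.4.1), SAMtools (1.7.1) and HOMER were used on mm10. Per the series' design text, the input served as the control for the HOMER calls. How HOMER was set, whether the ChIP libraries were pooled and how deep they were is not given in the sources used here. Each peak has a deposited score by the authors, on a scale that is not stated. The last deposited column, per the file headers a focus ratio or region size, was read as a fraction, the focus ratio, since every peak is 212 bp wide.

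The 3 of 25707 peaks on unplaced contigs were left out. Peaks were assigned to GENCODE M21 basic starts of protein-coding genes, and sequence came from the GRCm38.p6 RefSeq genome. A class was taken at the midpoint in the order promoter, coding exon, untranslated exon, noncoding exon, intron, intergenic. Binomial 95% intervals are Clopper-Pearson and describe counting error alone. No test was run, because the 1 list holds no replicate values. Alternatives covered score, distance, starts, window, motif form and promoter width. The motif search, nearest-start search and territories were tested on simulated data.

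The members and lists were chosen with earlier results of these data known. Named were all 10 members and, from the list by role, the 2 genes with the most peaks per role, with ties; 1 item is not reported here. Peaks described were the highest-scored and the nearest to a start of each member, and those in promoters; other single peaks were chosen after their values were seen. Scripts ran in Python (3.11.15) on pandas (2.3.3), numpy (2.4.6) and scipy (1.17.1); plots were drawn by matplotlib (3.10.9).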

Additional observations from a re-analysis of the deposited data

How the results depend on the processing

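The number of members with a peak was 9 and ranged from 6 (peaks in the top 25% of scores, or within 10 kb of a start) to 10 (member among the nearest 2 genes on either side) over the alternatives run. The number of peaks, 57, moved more. It was 22 with the top 25% of scores, 11 within 10 kb, 28 in gene bodies with 5 kb upstream, and 114 with the nearest 2 genes on either side. It was 32 when starts of all biotypes competed, since noncoding genes took some peaks. With all GENCODE starts it was 56 and with RefSeq starts 58, both chosen after seeing the data. The share of peaks with a forkhead core, 77.2%, lay between 73.7% and 80% except with GTAAACA only, 29.8%. The share with a receptor hexamer, 33.3%, was 3.51% with AGGTCA only and 52.6% in a window of 400 bp. Of the 53 other retinoid genes, 30 had a peak, and 19 with peaks at or above the median score. The share in promoters and the medians of score and focus ratio stayed within their interval or spread in every alternative run. No paired analysis was possible because the list holds no value per library, and leaving out a library could not be run for the same reason. Depth is unknown, so a gene without a peak cannot be told from one below the caller's limit.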
